A study of Mus musculus with 9 samples.

Results

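The genes described here build cholesterol and fatty acids or regulate that synthesis. They were chosen by name: 33 names were looked up in the platform annotation, of which Sc4mol is an older symbol of Msmo1, leaving 32 genes. For each gene the brightest probe set (a group of array probes for 1 transcript) with a single gene symbol was used. A probe set was found for 31 genes, of 18193 genes with one in the whole table, and all 31 were among the 8716 genes that were tested. They comprise 17 genes of sterol synthesis, 5 of regulation and transport, and 9 of fatty acid synthesis. Acat2, the thiolase ahead of Hmgcs1, was not analysed here.

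Expression was measured on 9 Affymetrix arrays of mouse embryonic stem (ES) cells. Of these, 1 array holds undifferentiated cells, maintained with leukemia inhibitory factor, serum replacement, little fetal bovine serum and doxycycline at 1 µg/ml. The other 8 hold differentiating cells of days 0.5, 1.5, 2.5 and 3.5 (written D0.5 to D3.5), in a serum medium without that factor, either with doxycycline at 1 µg/ml (Dox+) or without it (Dox-). The labels tie doxycycline to a constitutive active PKA, which is protein kinase A, an enzyme normally switched on by cyclic AMP. Since they leave unsaid in which medium this PKA was on, the groups are named by their medium; they also name no strain, clone or promoter. The 9 arrays are all of mouse ES cells or of cells differentiating from them, with 1 array per day and medium and no repeats.

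Cholesterol is made from acetyl-CoA through mevalonate, farnesyl diphosphate, squalene and lanosterol, and a shared set of transcription factors, the SREBPs, switches on the enzymes of this route. When membranes are poor in sterol, SCAP carries the SREBP precursors from the endoplasmic reticulum to the Golgi, where they are cut and released to the nucleus, and INSIG proteins hold them back when sterol is plentiful. SREBP-2, made from Srebf2, acts mainly on sterol genes, and SREBP-1, made from Srebf1, mainly on fatty acid genes. Together with NF-Y and Sp1, SREBPs bind close to the start of these genes.

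Promoter sequences were read from RefSeq windows (GRCm38.p6) that run from 250 bases before to 50 bases after the annotated start, and 24 of the 31 genes had one. Both strands were searched for the SRE-type motif TCACNCCAC, the E-box-type SRE TCACGTGA, the NF-Y box CCAAT and the Sp1 box GGGCGG. An NF-Y box was present in 13 of 14 windows of sterol genes, 3 of 4 of the regulators and 3 of 6 of the fatty acid genes, or 79.2% of the 24 windows, against 37.9% of the windows of all 27025 genes and 39.5% of those of 7170 tested genes. A Sp1 box was also found in 19 of the 24 windows (79.2%), against 35.9% of all windows and 68.8% of those of tested genes. The SRE-type motif was found in 1 of the 24, that of Hmgcs1, against 1.22% of all windows and 1.0% of those of tested genes. The E-box-type SRE was found in 0 of the 24, against 1.01% of all and 2.25% of tested genes. These are matches of letters, not measured sites, and 1 pair of matches overlapped. Where a gene has several windows, the first listed was used; counting any window of the 4 genes with several gave 20 of 24 with an NF-Y box and 20 with a Sp1 box.

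The windows of 4 genes are shown because they span the patterns reported below: Hmgcs1 and Cyp51, which rose with differentiation, Insig1, a regulator that rose, and Elovl6, which was lower on D1.5 and D2.5. They are written 5′ to 3′ in the sense of the gene, with every match in capitals. Hmgcs1 lies at chr13:119690101-119690400 on the plus strand, Cyp51 at chr5:4104648-4104947 on the minus strand, Insig1 at chr5:28071162-28071461 on the plus strand and Elovl6 at chr3:129532136-129532435 on the plus strand.
Hmgcs1: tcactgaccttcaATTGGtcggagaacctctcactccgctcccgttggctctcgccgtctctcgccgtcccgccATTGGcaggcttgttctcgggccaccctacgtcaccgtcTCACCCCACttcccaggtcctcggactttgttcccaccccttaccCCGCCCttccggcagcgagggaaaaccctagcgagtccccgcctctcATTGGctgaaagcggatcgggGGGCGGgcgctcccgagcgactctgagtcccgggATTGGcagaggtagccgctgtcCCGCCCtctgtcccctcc
Cyp51: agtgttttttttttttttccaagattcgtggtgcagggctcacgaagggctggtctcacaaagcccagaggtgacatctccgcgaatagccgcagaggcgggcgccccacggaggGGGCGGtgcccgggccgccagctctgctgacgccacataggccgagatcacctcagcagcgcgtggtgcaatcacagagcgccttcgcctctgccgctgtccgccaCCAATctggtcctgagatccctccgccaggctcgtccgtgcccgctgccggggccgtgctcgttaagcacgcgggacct
Insig1: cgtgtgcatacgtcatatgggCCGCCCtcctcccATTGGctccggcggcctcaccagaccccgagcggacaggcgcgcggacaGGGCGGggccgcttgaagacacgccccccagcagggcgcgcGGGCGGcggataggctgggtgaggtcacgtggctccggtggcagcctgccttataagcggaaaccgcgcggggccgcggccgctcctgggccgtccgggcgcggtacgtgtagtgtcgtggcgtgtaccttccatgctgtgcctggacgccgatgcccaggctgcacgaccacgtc
Elovl6: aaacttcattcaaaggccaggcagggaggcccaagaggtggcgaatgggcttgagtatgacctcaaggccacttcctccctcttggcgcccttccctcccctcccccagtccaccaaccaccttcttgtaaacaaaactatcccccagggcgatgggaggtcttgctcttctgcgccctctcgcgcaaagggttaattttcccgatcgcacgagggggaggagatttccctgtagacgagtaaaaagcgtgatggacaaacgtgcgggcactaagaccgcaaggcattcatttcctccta
Hmgcs1 holds the SRE-type motif 137 bases before the start, with 4 NF-Y boxes and 3 Sp1 boxes around it. Cyp51 has 1 NF-Y box, 29 bases before the start, and 1 Sp1 box, and Insig1 has 1 NF-Y box and 3 Sp1 boxes. None of the 4 motifs is in the Elovl6 window, which says only that these letters are not in these 300 bases.

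**Figure D1:**
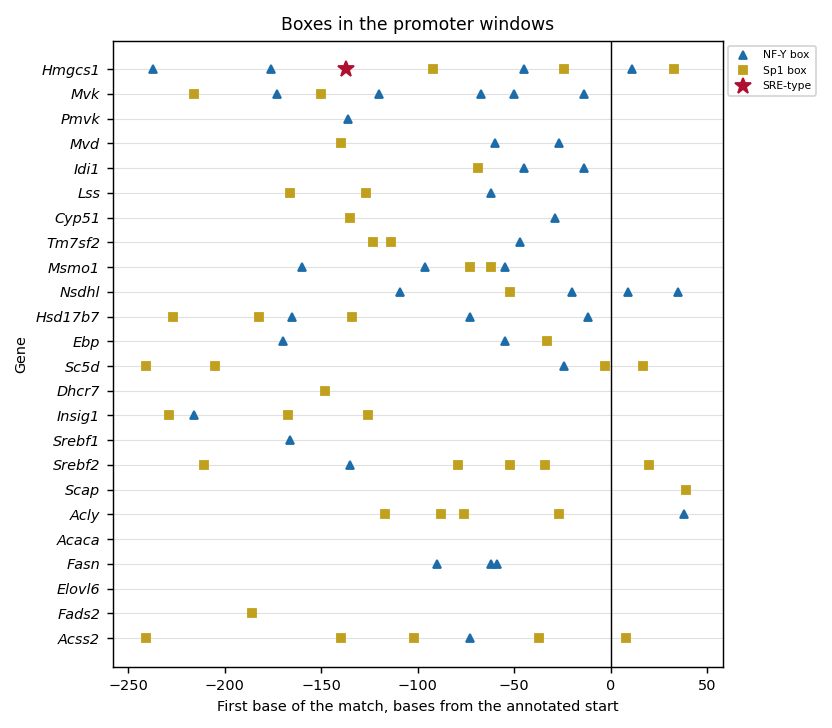
Matches to the NF-Y box, the Sp1 box and the SRE-type motif in the promoter windows of 24 genes. The horizontal axis gives the distance of the match's first base from the annotated start in bases, each row is 1 gene, and the single SRE-type match lies in Hmgcs1. Matches to the NF-Y box span -237 to 38.

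Signals are linear and already scaled by the authors to a mean of 100 per array, and differences are those of log2(signal + 16), where the added 16 shrinks the changes of dim genes. Between 41.6% and 44.2% of genes per array had a signal of at least 50. The ES cell markers Pou5f1, Sox2, Nanog, Zfp42 and Esrrb were all bright in undifferentiated cells, with a summed signal of 9769.5, and their sum was 4970.6 on D3.5 Dox+ and 1169.2 on D3.5 Dox-. Not every marker followed the sum. On D3.5 Dox+ Sox2, Zfp42 and Esrrb were lower than in undifferentiated cells, while Pou5f1 was close (2098.7 against 2262.7) and Nanog higher (1886.6 against 1629.6). Summed signals of 5 mesoderm markers lay at 66.4 and 84.1 on D0.5 and reached 755.1 (Dox+) and 2594.1 (Dox-) on D3.5, those of 6 fibroblast markers ranged from 37.0 to 346.3, and those of 8 visceral endoderm markers from 82.0 to 253.7, with Afp, Ttr, Apoa1, Apoa2 and Apob not above 19.5. The highest signals of these last markers were those of Sox17, at 100.2, 90.0 and 85.2 on D1.5, D2.5 and D3.5 in Dox- against 12.3, 7.2 and 14.2 in Dox+. The liver and adipocyte markers measured were near 0 throughout, with no gene above 7.9. The 3′ to 5′ ratio of Actb, which tracks RNA integrity, ranged from 1.6 to 1.98. In bulk samples such as these, a change in the share of cells of one type and a change of RNA per cell cannot be told apart.

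Of the 31 genes, 25 rose from D0.5 to D3.5 and 0 fell at an adjusted p under 0.05 (limma, Benjamini-Hochberg over all 8716 genes). Over all tested genes 11.8% rose and 10.2% fell. Of the sterol genes 15 of 17 rose, with a median change of 1.27. The 15 include Tm7sf2, which reached the signal filter only through its D3.5 arrays. With a filter on the mean signal, which left Tm7sf2 out, 24 genes were called. Of the regulators 4 of 5 rose (median 0.70), and of the fatty acid genes 6 of 9 (median 0.61), while the median of all tested genes was 0.02. The media stand in for repeats here (8 arrays, 3 residual degrees of freedom), so these p-values measure only the spread between these arrays. In the same fit 3 of the 5 ES cell markers fell (Zfp42, Esrrb and Sox2). The fibroblast marker Col1a2 rose by 1.86 ± 0.43 (SE, limma adjusted p = 0.0294). Col1a2 reached the signal filter only through its D2.5 and D3.5 Dox- arrays (76.3 and 137.2), so its call is no separate support for a rise. Only 2 of the 6 fibroblast markers were tested, and the other, Dcn, was not called (0.86 ± 0.6, limma adjusted p = 0.333). The 5 mesoderm markers all had positive values (median 3.64), of which none passed the test here and 3 were called in a fit of a slope per day. These 3, Pdgfra, Mesp1 and Mixl1, reached the signal filter only through their D2.5 Dox- array and both D3.5 arrays. Their calls are likewise no separate support for a rise. The part of cell composition in the result was not tested. The Actb ratio was 1.7 and 1.74 on D0.5 and 1.94 (Dox+) and 1.63 (Dox-) on D3.5, so that it was higher than on D0.5 in one medium and lower in the other.

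**Figure D2:**
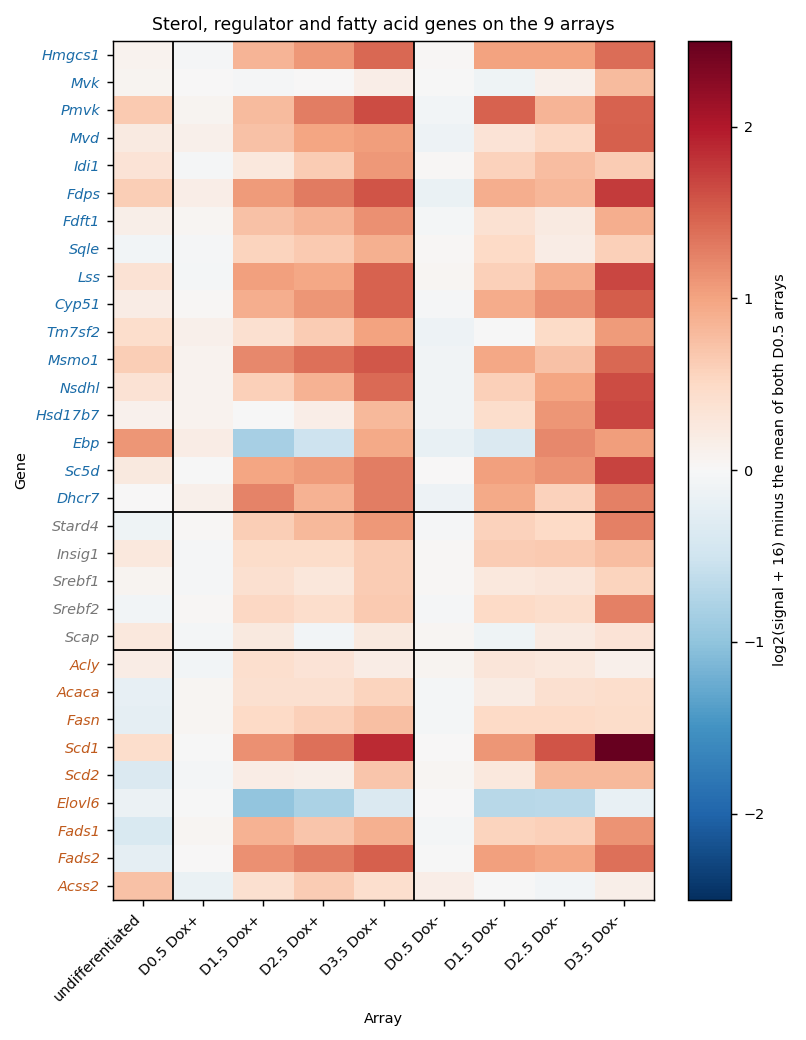
Each row is 1 gene and each column 1 array. Colour gives log2(signal + 16) minus the mean of both D0.5 arrays, from blue (lower) to red (higher), with sterol genes, regulators and fatty acid genes separated by black lines. Most rows deepen in red from D0.5 to D3.5 in both media, and Elovl6 is blue on D1.5 and D2.5.

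The early sterol route leads from acetyl-CoA to farnesyl diphosphate, and its first gene analysed here is Hmgcs1, the cytosolic synthase that makes HMG-CoA. Hmgcs1 had a signal of 1762 in undifferentiated cells, 1623, 3007, 3530.1 and 4513 from D0.5 to D3.5 in Dox+, and 1704, 3350.4, 3368 and 4402 in Dox-. Both D0.5 arrays were the lowest and both D3.5 arrays the highest, and the media were nearly superimposed. The fitted change from D0.5 to D3.5 was 1.41 ± 0.08 (here and below, ± gives the SE of the fit; 2.66-fold on this scale, limma adjusted p = 0.00292). Mevalonate kinase, Mvk, was dimmer and flatter, at 56.4 in undifferentiated cells, 53.9, 52.4, 53.6 and 61.6 in Dox+ and 53.0, 48.2, 60.0 and 104 in Dox-. Only the D3.5 Dox- array stood above the others, and the change of 0.48 ± 0.24 did not pass the test (limma adjusted p = 0.195).

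The next kinase, Pmvk, gave 172 in undifferentiated cells, 108, 189, 273 and 350 in Dox+ and 97.7, 315, 198 and 314 in Dox-. Its D1.5 arrays differed by 0.69 between media, yet both D3.5 arrays stood above both D0.5 arrays, and it rose by 1.55 ± 0.27 (limma adjusted p = 0.0138). Mvd, the decarboxylase that makes isopentenyl diphosphate, was at 74.5 in undifferentiated cells, 68.2, 112, 137 and 145 in Dox+ and 55.5, 82.0, 94.8 and 202 in Dox-, and rose by 1.27 ± 0.25 (limma adjusted p = 0.0185). Within each medium Mvd was brighter on every later day. Idi1, which isomerises that product, was at 1055, then 817, 1004, 1296 and 1780.4 in Dox+ and 840.2, 1239.5, 1422 and 1287 in Dox-, and rose by 0.86 ± 0.18 (limma adjusted p = 0.0247). In Dox-, Idi1 was brightest on D2.5 rather than D3.5. Fdps joins these units into farnesyl diphosphate, from which sterols, dolichol and protein prenyl groups all branch. Its signals were 665 in undifferentiated cells, 479.5, 919, 1078 and 1310 in Dox+ and 383, 816, 771 and 1487 in Dox-, and it rose by 1.67 ± 0.17, 3.18-fold (limma adjusted p = 0.00415); with the mean of its 2 probe sets the value was 0.80 and still passed. The D3.5 arrays of Fdps stood above all others in both media.

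The next enzymes commit farnesyl diphosphate to sterols. Squalene synthase, Fdft1, gave 981 in undifferentiated cells, 919, 1486, 1613 and 1972 in Dox+ and 857, 1162, 1034 and 1671 in Dox-. Fdft1 was lower in Dox- on all 4 days, and rose by 1.02 ± 0.14 (limma adjusted p = 0.00815); with the mean of its 4 probe sets the value was 0.42 and no longer passed. Squalene epoxidase, Sqle, was at 765, then 790.1, 1189, 1282 and 1502 in Dox+ and 826, 1151, 926 and 1230.2 in Dox-, and rose by 0.74 ± 0.15 (limma adjusted p = 0.0203). Sqle dipped between D1.5 and D2.5 in Dox- but not in Dox+. Lanosterol synthase, Lss, closes the ring system. Its signals were 259 in undifferentiated cells, 192, 419.7, 405 and 578 in Dox+ and 205, 309.8, 386 and 668 in Dox-, with both D3.5 arrays the brightest, and it rose by 1.57 ± 0.18 (limma adjusted p = 0.00513).

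The late route turns lanosterol into cholesterol. Cyp51, the cytochrome P450 that demethylates lanosterol, gave 284 in undifferentiated cells, 254, 479, 555 and 719 in Dox+ and 243, 488, 568 and 736 in Dox-. Its arrays were ordered by day in both media and hardly differed between them. It rose by 1.49 ± 0.12, 2.81-fold (limma adjusted p = 0.00308). Tm7sf2, a sterol reductase, was dim at 38.8 in undifferentiated cells, 27.9, 37.2, 46.8 and 65.2 in Dox+ and 20.8, 23.9, 40.0 and 68.2 in Dox-. Its fitted change was 1.04 ± 0.24 (limma adjusted p = 0.0283), a call that was lost without the D2.5 arrays. With a pseudocount of 64 the value was 0.57 and still passed. Only its D3.5 arrays reached the signal of 50 that a gene needed on 2 arrays to be tested. Tm7sf2 was thus tested only because it was high on D3.5, and its call is no separate support for a rise. Msmo1, the methylsterol oxidase, gave 591, then 404, 895, 1012 and 1150.5 in Dox+ and 360.2, 762, 642 and 1058 in Dox-, and rose by 1.49 ± 0.16 (limma adjusted p = 0.0045), or by 0.88 with the mean of its 2 probe sets. Like Fdft1, Msmo1 was lower in Dox- on all 4 days. Nsdhl, the dehydrogenase of the same demethylation steps, gave 186, then 151, 222, 269 and 399 in Dox+ and 130.5, 219.5, 295 and 467 in Dox-. Nsdhl was brighter on each later day in both media, and rose by 1.52 ± 0.15 (limma adjusted p = 0.00394).

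Hsd17b7, the ketoreductase of those steps, was the sterol gene with the largest fitted difference between media, at 0.51 ± 0.20. With the mean of its 4 probe sets that difference was 0.31, below the 0.48 of Ebp. Hsd17b7 gave 101 in undifferentiated cells, 98.8, 92.1, 107 and 175 in Dox+ and 86.8, 130.5, 216 and 329.6 in Dox-. The D0.5 arrays were close to each other, and from D1.5 on the Dox- array was brighter. The change from D0.5 to D3.5 was 1.24 ± 0.28 (limma adjusted p = 0.0271); it was 0.64 and not called with the mean of its 4 probe sets, and not called without the medium as a block. Ebp, the sterol isomerase, had 326 in undifferentiated cells, 165, 73.3, 95.7 and 290.1 in Dox+ and 125, 108, 348 and 314 in Dox-. It was dimmer on D0.5 and D1.5 than in undifferentiated cells and returned near that level in Dox- by D2.5 and in Dox+ by D3.5. Its change of 1.00 ± 0.45 did not pass the test (limma adjusted p = 0.164), although it passed when the D2.5 arrays were left out. Ebp has a single probe set, so no other one was available to compare it with.

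Sc5d, the desaturase near the end of the route, gave 161 in undifferentiated cells, 133, 280.2, 297 and 349 in Dox+ and 135, 290.2, 309 and 465 in Dox-, and rose by 1.48 ± 0.15 (limma adjusted p = 0.00415), or by 0.78 with the mean of its 3 probe sets. Dhcr7, which reduces the last precursor to cholesterol, gave 90.2, then 99.1, 233, 175 and 239 in Dox+ and 79.7, 185, 140.2 and 235 in Dox-, and rose by 1.27 ± 0.14 (limma adjusted p = 0.00524). Dhcr7 reached nearly its full D3.5 signal by D1.5 in Dox+ and was dimmer on D2.5 in both media.

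**Figure D3:**
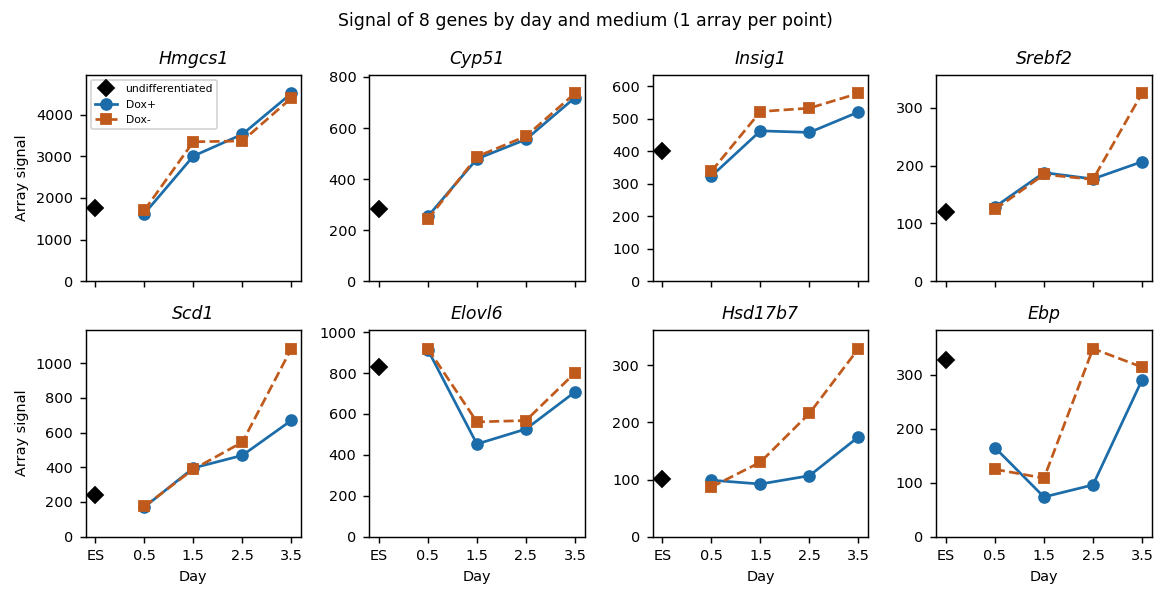
Array signal (vertical axis, linear, from 0) of 8 genes in undifferentiated ES cells (diamond) and on days 0.5 to 3.5 in Dox+ (circles) and Dox- (squares), with 1 array per point. Hmgcs1 and Cyp51 overlap between media, Elovl6 dips on D1.5, and Hsd17b7 is higher in Dox- from D1.5 on. Ebp lies far apart on D2.5 alone, at 95.7 (Dox+) and 348 (Dox-).

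The 5 regulators and transport genes had smaller fitted changes than most of the sterol enzymes. Srebf2 gave 119 in undifferentiated cells, 129, 188, 177 and 207 in Dox+ and 124, 185, 176 and 325 in Dox-, and rose by 0.95 ± 0.20 (limma adjusted p = 0.0235). The media lay close together up to D2.5, and the D3.5 Dox- array was the highest. Srebf1 gave 331, then 308, 421, 384 and 492 in Dox+ and 319, 378, 389.6 and 471 in Dox-, and rose by 0.60 ± 0.12 (limma adjusted p = 0.0227). Both factors were therefore brighter on D3.5 than on D0.5 in each medium. Insig1, itself an SREBP target, gave 400.1, then 323, 462, 458 and 520.2 in Dox+ and 338, 522, 532 and 578 in Dox-, and rose by 0.70 ± 0.12 (limma adjusted p = 0.0127). Most of the Insig1 difference was present on D1.5. Stard4, a soluble carrier of cholesterol between membranes, gave 192, then 211, 326, 376 and 454 in Dox+ and 202, 316, 297 and 520.1 in Dox-, and rose by 1.17 ± 0.16 (limma adjusted p = 0.00758), the largest change of the 5. Scap gave 228, then 179.9, 224, 178 and 226 in Dox+ and 194, 172, 221 and 239 in Dox-, with no order by day, and its change of 0.29 ± 0.18 did not pass the test (limma adjusted p = 0.28).

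Among fatty acid genes the 4 desaturases had the largest fitted changes. Scd1, which puts the first double bond into saturated acyl-CoA, gave 239.9 in undifferentiated cells, 169.7, 396, 468 and 670.2 in Dox+ and 174, 388, 545 and 1084 in Dox-. Each later day was brighter in both media, and the media parted on D3.5. Scd1 rose by 2.21 ± 0.20, 4.63-fold (limma adjusted p = 0.0035), the largest change of the 31 genes and rank 158 of the 8716. Its paralog Scd2 gave 1879, then 2328, 2757, 2682 and 3916 in Dox+ and 2512, 2919.5, 4264 and 4269.8 in Dox-, and rose by 0.75 ± 0.15 (limma adjusted p = 0.0207); the call was lost with the mean of its 3 probe sets (0.71). Fads1 and Fads2 desaturate polyunsaturated fatty acids. Fads1 gave 136, then 189, 349, 305 and 354 in Dox+ and 177, 279, 287 and 417 in Dox-, and rose by 1.01 ± 0.16 (limma adjusted p = 0.0115). Fads2 gave 88.6, then 107, 255, 286 and 327 in Dox+ and 105, 233, 223 and 299.9 in Dox-, and rose by 1.43 ± 0.14 (limma adjusted p = 0.0038). For both, all 6 later arrays were brighter than both D0.5 arrays.

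The enzymes that build the chain had smaller fitted changes. Fasn, fatty acid synthase, gave 564 in undifferentiated cells, 689, 944, 1012 and 1132 in Dox+ and 640.4, 947, 951 and 919 in Dox-, and rose by 0.61 ± 0.12 (limma adjusted p = 0.0178). Acaca, the acetyl-CoA carboxylase that supplies malonyl-CoA, gave 146, then 176, 229, 229.6 and 259 in Dox+ and 164, 199, 229.7 and 235 in Dox-. Its rise of 0.50 ± 0.13 was close to the threshold (limma adjusted p = 0.0421) and was lost under 5 of the alternatives, among them leaving out the D1.5 or the D2.5 arrays. The suppliers of acetyl-CoA did not pass the test: Acly, which splits citrate, gave 1541, then 1296, 1815, 1721 and 1544 in Dox+ and 1410.4, 1662, 1637 and 1479.8 in Dox-, a change of 0.16 ± 0.10 (limma adjusted p = 0.274). Acss2, which activates acetate, was dim, at 72.5, then 31.8, 55.0, 67.5 and 56.0 in Dox+ and 44.1, 37.0, 34.8 and 43.0 in Dox-, a change of 0.28 ± 0.29 (limma adjusted p = 0.516). Acly was brightest on D1.5 in both media, and Acss2 followed no order of days.

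Elovl6, which elongates palmitate to stearate, ran the other way. It gave 829.5 in undifferentiated cells, 913, 453, 526 and 707 in Dox+ and 919, 561, 568 and 800.4 in Dox-. Both D0.5 arrays were the brightest of the 9, and within each medium the D1.5 array was the dimmest. It fell from D0.5 to D1.5 by 0.84 ± 0.12 (SE; limma adjusted p = 0.031) and was still lower on D2.5, with a change of -0.73 ± 0.12 (limma adjusted p = 0.0204). By D3.5 the change from D0.5 was -0.28 ± 0.12 and did not pass (limma adjusted p = 0.149). Of the 31 genes it was the only one to fall in any of the fits of days.

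**Figure D4:**
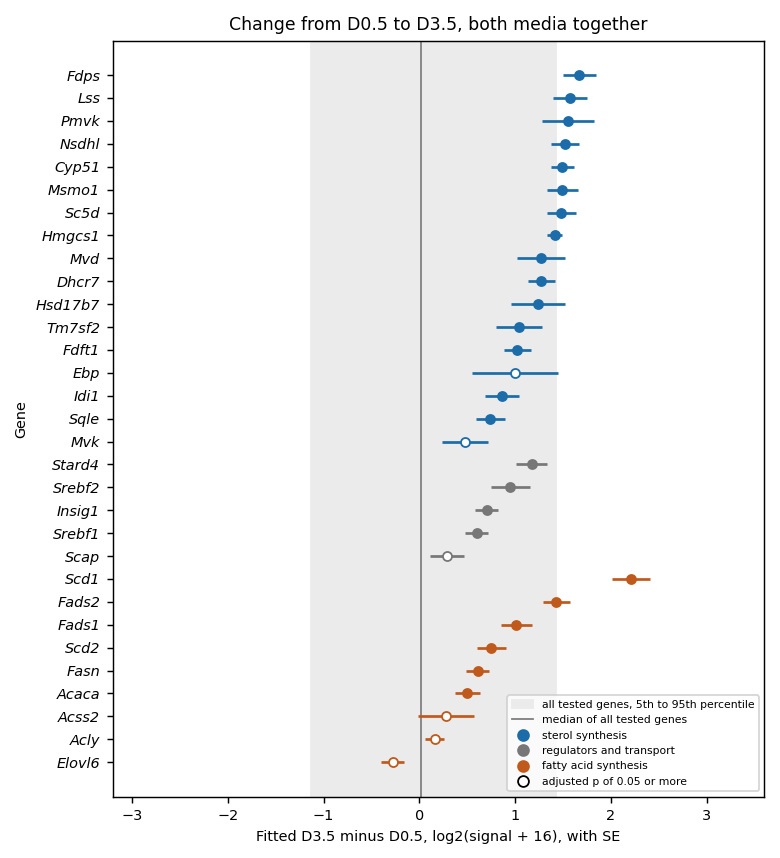
Fitted change from D0.5 to D3.5 on the log2(signal + 16) scale with its SE, for 31 genes in 3 groups; filled points passed an adjusted p of 0.05. The grey band spans the 5th to 95th percentile of all tested genes (-1.13 to 1.43) and the line marks their median (0.02). All 17 sterol genes lie to the right of the line, and Elovl6 is the only gene to its left.

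Part of the change was already present on D1.5. From D0.5 to D1.5, 8 of the 31 genes rose, against 1.73% of all tested genes, and 1 fell, against 1.32%. Those that rose were Dhcr7 (1.09 ± 0.14), Msmo1 (1.08 ± 0.16), Sc5d (1.01 ± 0.15), Fdps (0.99 ± 0.17), Hmgcs1 (0.93 ± 0.08) and Cyp51 (0.92 ± 0.12) of the sterol genes, and Scd1 (1.12 ± 0.20) and Fads2 (1.09 ± 0.14) of the fatty acid genes (limma adjusted p from 0.0153 for Hmgcs1 to 0.0441 for Scd1). From D0.5 to D2.5, 13 rose and 1 fell, against 6.46% and 5.6% of all tested genes. The medians of the sterol genes were 0.60, 0.75 and 1.27 for D1.5, D2.5 and D3.5, those of the regulators 0.51, 0.44 and 0.70, and those of the fatty acid genes 0.36, 0.48 and 0.61. These comparisons share the D0.5 arrays.

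Day by day, the sterol genes of Dox+ differed by a median of 0.68 between D0.5 and D1.5, 0.21 between D1.5 and D2.5, and 0.35 between D2.5 and D3.5. In Dox- the same medians were 0.56, 0.18 and 0.63. D3.5 was the brightest day for all 17 sterol genes in Dox+ and for 14 of 17 in Dox-, and for all 5 regulators in each medium. Among the 9 fatty acid genes it was so for 6 in Dox+ and 5 in Dox-. How many of all tested genes were brightest on D3.5 was not counted. A comparison of D3.5 with D1.5, added after the values were seen, called 0 of the 31 genes, against 0% higher and 0% lower of all tested genes (limma, lowest adjusted p among the 31 = 0.159). Of the 31 genes 30 were higher, 17 of them at an unadjusted p under 0.05, against 8.4% of all tested genes that were higher at that level, and the median was 0.46. Among all 8716 tested genes 4484 were higher, with a median of 0.01.

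A steady change per day was fitted as well. It called 25 of the 31 genes higher and 0 lower, against 12.3% and 11.1% of all tested genes. Tm7sf2, tested only through its D3.5 arrays, was among the 25. The steepest were Scd1, at 0.70 ± 0.07 per day, Fdps, at 0.51 ± 0.08, Nsdhl, at 0.49 ± 0.05, and Lss, at 0.48 ± 0.07 (limma adjusted p = 0.00339, 0.00628, 0.00248 and 0.00512). This count depended on the days included: it was 0 without the D0.5 arrays, when 51 of all genes were called, 9 without D3.5 (960 genes), 13 without D2.5 (740 genes) and 25 without D1.5.

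Most sterol genes had a higher signal in undifferentiated cells than on D0.5. On the D0.5 Dox+ array 15 of 17 were lower than in undifferentiated cells, with a median of -0.25, and on the D0.5 Dox- array 16 of 17 were, with a median of -0.32. Among all 8716 tested genes 3857 were lower in Dox+ (median 0.04) and 4341 in Dox- (median 0.00). The regulators lay at medians of -0.10 and -0.05, and the fatty acid genes at 0.23 and 0.15, so that the groups of genes did not share a sign. None of the 31 was 2-fold higher on either D0.5 array, against 1.43% (Dox+) and 1.57% (Dox-) of all tested genes. Of the 31, 0 in Dox+ and 1 in Dox-, Ebp at -1.28, were at least 2-fold lower, against 1.3% of all tested genes in each. The culture medium changed at the same step, so medium and time cannot be told apart, and with 1 array a group there is no test.

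Set against undifferentiated cells, the D3.5 arrays were higher by at least 2-fold for 11 of the 31 genes in Dox+ and 15 in Dox-, and lower for 0 in each. Among all tested genes 11.1% and 12.7% were higher, and 6.34% and 8.86% lower, in Dox+ and Dox-. Scd1 (1.42 and 2.10), Fads2 (1.71 and 1.59), Fads1 (1.28 and 1.51), Hmgcs1 (1.35 and 1.31) and Cyp51 (1.29 and 1.33) were among those above this mark in both media. Below their undifferentiated level in both media were Acss2 (-0.30 and -0.58), Elovl6 (-0.23 and -0.05) and Ebp (-0.16 and -0.05), and in 1 medium each Scap (-0.01 in Dox+) and Acly (-0.06 in Dox-).

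The study asked how doxycycline, through PKA, bears on early differentiation. Between media, 0 of the 31 genes and 0% of all tested genes passed the test (limma, day as a block, 4 pairs of arrays). At an unadjusted p under 0.05 there were 3 of the 31 and 1026 of all. The 3 were Fdft1, at -0.33 ± 0.10 in Dox- relative to Dox+, Msmo1, at -0.29 ± 0.11, and Hsd17b7, at 0.51 ± 0.20 (limma adjusted p = 0.416 for each). For Hsd17b7 the value was 0.31 with the mean of its probe sets, and 0.38 to 0.74 leaving out 1 day at a time. The sterol genes had a median of 0.00, the regulators of 0.03 and the fatty acid genes of -0.06, against -0.01 for all tested genes.

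A miss of the threshold does not show that the media act alike, so the intervals of the differences are given. The 95% interval of the difference lay within 1 on either side of 0 for 30 of the 31 genes and within 0.5 for 21. The same count was not made over all tested genes, so these counts set the 31 genes apart from no others. The fitted differences of all tested genes ran from -0.50 to 0.42 between the 5th and 95th percentile. The fit pools the 4 days, so the intervals do not bound single days, such as D2.5, where Ebp differed by 1.71. Hmgcs1 had a difference of 0.03 ± 0.06 with an interval of -0.11 to 0.17, and Cyp51 0.01 ± 0.08 with -0.19 to 0.20. The widest was that of Ebp, at 0.48 ± 0.32, from -0.29 to 1.26. Of the regulators, Insig1 was furthest up in Dox-, at 0.15 ± 0.08 with an interval of -0.05 to 0.35, and Stard4 furthest down, at -0.06 ± 0.11. Of the fatty acid genes these were Scd2, at 0.25 ± 0.11 (-0.01 to 0.51), and Acss2, at -0.27 ± 0.21 (-0.78 to 0.23).

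Whether the difference between media changed steadily with day was tested with the product of medium and day, which called 0 of the 31 genes and 0% of all tested genes (limma; 1 and 736 at an unadjusted p under 0.05). The 1 was Hsd17b7, whose difference grew by 0.35 ± 0.12 per day (limma adjusted p = 0.562). The next in size were Ebp (0.26 ± 0.35), Mvk (0.22 ± 0.14), Scd1 (0.22 ± 0.13) and, in the other direction, Acss2 (-0.21 ± 0.16). For Ebp and Acss2 the sign turned without the D0.5 arrays.

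On single days few of these genes were far apart. None of the 31 differed by at least 2-fold between media on D0.5, where 0.0918% of all tested genes were higher and 0.0229% lower in Dox-, none on D1.5 (1.33% and 1.42%), and none on D3.5 (4.13% and 4.8%). On D2.5 there was 1, Ebp, at 1.71 (3.41% of all tested genes higher and 4.45% lower). It was followed on D2.5 by Hsd17b7, at 0.92, and Acss2, at -0.72. On D3.5 the furthest were Hsd17b7 (0.86), Scd1 (0.68), Mvk (0.63), Srebf2 (0.61) and, in the other direction, Idi1 (-0.46). On these days the mesoderm and ES cell markers also differed between media: the mesoderm sum on D2.5 was 72.5 in Dox+ against 3794.8 in Dox-, and the ES cell sum 4533.8 against 3432.0. Of the ES cell markers, Nanog alone went the other way on D2.5, at 826.3 in Dox+ and 1324.0 in Dox-, and Esrrb was at 8.7 in both. The part of these mesoderm and ES cell markers in the differences of Ebp and Hsd17b7 was not tested.

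**Figure D5:**
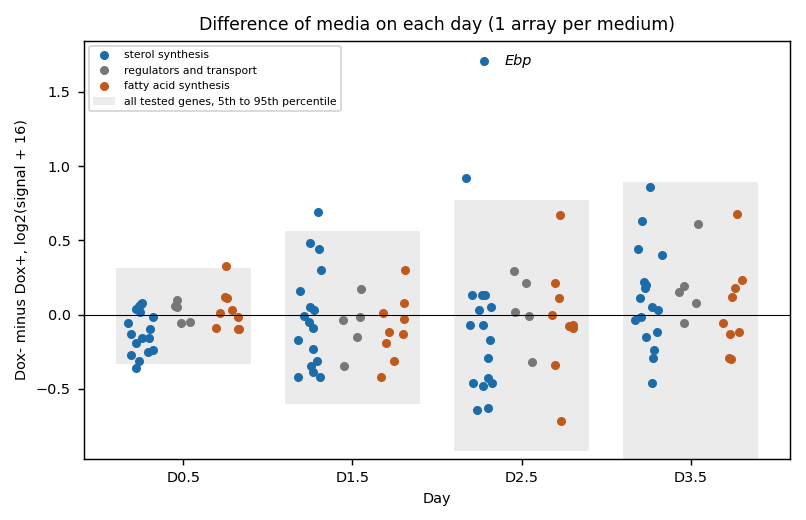
Difference between media (Dox- minus Dox+, log2(signal + 16)) on each day, with 1 point per gene coloured by group and a grey bar for the 5th to 95th percentile of all tested genes. The bar widens from -0.33 to 0.31 on D0.5 to -0.97 to 0.89 on D3.5, and Ebp, at 1.71 on D2.5, is the point furthest from 0.

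Further genes of the same pathways were taken as whole lists, set with earlier results of these data known, and their counts from D0.5 to D3.5 stand beside the 11.8% of all tested genes that rose and the 10.2% that fell. Among 5 other sterol and isoprenoid genes, 1 rose, Erg28 at 0.72 ± 0.15 (SE), a scaffold of the late sterol enzymes in yeast, and 1 fell, Acat1 at -0.97 ± 0.26, the mitochondrial thiolase (limma adjusted p = 0.0235 and 0.044). Of 11 tested genes listed under sterol uptake, storage and export, 4 rose (limma adjusted p from 0.00292 for Rdh11 to 0.0202 for Scarb1). The largest rise was that of Rdh11 (2.29 ± 0.15), a retinol dehydrogenase and so not itself a gene of sterol transport. The others were Npc1 (1.39 ± 0.20) and Npc2 (1.06 ± 0.15), which move cholesterol out of lysosomes, and Scarb1 (0.86 ± 0.17), a lipoprotein receptor. Abca1, the exporter induced by sterol excess, had -1.25 ± 0.35 and did not pass in this comparison (limma adjusted p = 0.0512). In the fit of a slope per day it was called lower, at -0.37 ± 0.11 (limma adjusted p = 0.0441). None of 5 genes of SREBP processing passed in either direction, their values running from -0.15 to 0.53, with Rnf139, a ubiquitin ligase (0.53 ± 0.16, limma adjusted p = 0.0616), and Mbtps1, a protease that cuts SREBPs (0.21 ± 0.11), the furthest up.

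Of 11 tested further fatty acid genes, 7 rose and 1 fell, against the same 11.8% and 10.2% of all tested genes. Acsl3, which activates fatty acids, rose by 1.62 ± 0.14 and Elovl1, an elongase of very long chains, by 1.62 ± 0.33, followed by Lpin1 (0.83 ± 0.18), a phosphatidate phosphatase. Hsd17b12 (0.74 ± 0.10) and Tecr (0.60 ± 0.16), reductases of the elongation cycle, rose too, as did the elongase Elovl5 (0.67 ± 0.12) and the citrate carrier Slc25a1 (0.56 ± 0.13). Acacb, the carboxylase at mitochondria, had -1.09 ± 0.25 (limma adjusted p = 0.0311). Fatty acid oxidation ran differently, with a median of -0.64 over 8 tested genes, of which 4 fell and 2 rose. Cpt1a, the gate of fatty acids into mitochondria, had a signal of 143 and 146 on D0.5 (Dox+ and Dox-) and 41.8 and 13.4 on D3.5, a change of -1.96 ± 0.31 (limma adjusted p = 0.0108). The others that fell were Slc25a20 (-1.06 ± 0.21), the carnitine carrier, Hadhb (-0.90 ± 0.23), a subunit of the trifunctional protein, and Acadm (-0.67 ± 0.17), a dehydrogenase of medium chains. Slc25a20 reached the signal filter only through its undifferentiated, D0.5 Dox+ and D0.5 Dox- arrays (296.7, 100.6 and 92.1). Its call is therefore no separate support for a fall. Those that rose were Acadl (1.03 ± 0.15), a dehydrogenase of long chains, and Cpt2 (0.79 ± 0.20), the inner membrane carnitine transferase.

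The choice of probe set was checked with the next brightest one. Of the 31 genes, 22 had a second probe set, and for 21 of them its change from D0.5 to D3.5 had the same sign. The exception was Fdps, at -0.06, where the second probe set had signals of 0.1 to 5.2 on the 9 arrays. For Elovl6 the second gave -0.36, for Scd1 1.67, for Hmgcs1 1.23 and for Cyp51 1.07. Probe sets named as possibly matching other transcripts represent Mvd, Fdft1, Lss, Hsd17b7 and Acly, whose values are therefore less certain.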

How the data were processed

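Total RNA of 9 mouse ES cell samples, grouped by the labels, was hybridised to 1 array each. The authors deposited intensity values, 1 linear signal per probe set, made with GCOS per the submitters' processing notes; for its version and background correction, nothing is stated in the sources used. Per the labels the arrays were scaled to average 100, and the mean without the highest and lowest 2% of probe sets was 100.0 on every array. Of 45101 probe sets, 34945 had 1 gene symbol, 932 several and 9224 are unnamed here; 34741 symbols were updated through gene IDs with the RefSeq table (GRCm38.p6). Each gene took its brightest probe set with 1 symbol over the 9 arrays.

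Values were analysed as log2(signal + 16) without further normalization. The 8716 genes that reached a signal of 50 on 2 or more arrays were tested in limma 3.58.1 (R 4.3.3; lmFit, eBayes with trend, Benjamini-Hochberg over all genes, called at 0.05) on the 8 differentiating arrays. Media and days were compared in a fit with both terms (3 residual degrees of freedom), a slope per day with medium as a block (5) and the product of medium and day (4). Single arrays were compared by counts at least 2-fold apart, with no test. The fits were tested on simulated data.

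The genes and lists were chosen with earlier results of these data known. Signals are printed for genes called in a fit, for the largest of each list and direction, for Hmgcs1 and Cyp51 and for the pairs Scd1 and Scd2, Srebf1 and Srebf2, Insig1 and Stard4. Fitted values are given for those called or of at least 0.5 (0.2 per day) in size, and of the further lists for those called and the largest 2; signals and fitted values of the remaining genes among the 31, and of the second probe sets, were added after their values were seen. D3.5 against D1.5 was also added then. Alternatives changed the pseudocount (1, 64), the filter, the normalization (quantile), the probe set, the trend, the block and the days included. The number of arrays limits the precision.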

Additional observations from a re-analysis of the deposited data

How the results depend on the processing

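The count of the 31 genes called from D0.5 to D3.5 stayed between 21 and 25 under the 10 alternatives, and that of all genes between 1326 and 1968 (1917 as reported). Of the named genes' calls in that comparison, 248 repeats kept their side of the threshold, 10 lost it and 1 gained it, and none changed sign. The sterol median of 1.27 was 1.0 with the mean of all probe sets and 0.98 with a pseudocount of 64, which also moved the median of the regulators from 0.70 to 0.63. For the slope per day, leaving out 1 day at a time gave 0 to 25 of the 31 genes and 51 to 1869 of all genes (2034 with all days), fewer arrays being fitted each time; 252 repeats for named genes kept their side and 59 lost it. Between media, 0 genes were called under every alternative run. At least 2-fold apart between media on D2.5 were 2 of the 31 genes with a pseudocount of 1 (Ebp and Hsd17b7) and 0 with the next brightest probe set, which Ebp does not have. In the change of the medium difference per day, leaving out 1 day at a time gave -0.18 to 1.03 for Ebp and -0.52 to 0.07 for Acss2, the sign turning without D0.5; the cause was not tested. The labels carry no replicate numbers; the arrays of a day were paired through the day as a block, and without that block 0 genes were called between media as well. With 1 array per day and medium, differences on single days have no error, and dim genes such as Tm7sf2, Acss2 and Mvk lie close to the signal filter of 50.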
